A study of Mus musculus and Homo sapiens with 10 samples.

Results

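The imprinted Igf2 to Kcnq1 domain of the mouse was followed through 10 listed genes at the far end of chromosome 7, taken by name out of 49214 annotated genes on chromosomes 1 to 19 and X. In order along the chromosome they were H19, Igf2, Ins2, Ascl2, Tspan32, Cd81, Kcnq1, Cdkn1c, Phlda2 and Nap1l4, and all 10 were found in the annotation. H19 is a long non-coding RNA gene and the other 9 are protein-coding. The readout was the position of each gene in lists of lamina-associated domains (LADs, stretches of chromatin that lie at the nuclear lamina) of N2A cells, a mouse neuroblastoma line. LADs had been mapped by DamID, in which the adenine methyltransferase Dam, fused to the lamina protein LaminB1, marks GATC sites near the lamina. A Nanopore version of the method had 1 sample of LaminB1-Dam, 1 labelled 10% LaminB1-Dam, a label that is not explained further, and 1 of Dam alone; the Illumina version had 2 samples of LaminB1-Dam and 1 of Dam alone. A Wildtype N2A sample completed the mouse set. Expression of the Dam proteins was induced with 2 µg/mL doxycycline, and the labels give neither the clones behind the lines nor whether the 2 Illumina samples came from separate cultures. Each method was represented by a consensus list of LAD intervals with no value per sample, so sequencing depth was unknown, no spread between replicates could be computed, and no difference between the methods could be tested. The lists hold no expression values, so the identity of the cells could not be checked against marker genes.

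In an imprinted gene only the copy inherited from a given parent is active, and the silent copy is set by DNA methylation laid down in the egg or sperm. The domain is controlled from a pair of elements. The first lies just upstream of H19, between it and Igf2, where the insulator protein CTCF binds the unmethylated maternal copy. The second lies within Kcnq1, at the promoter of the antisense RNA Kcnq1ot1, which is transcribed from the paternal copy and silences its neighbours there. H19, Ascl2, Kcnq1, Cdkn1c and Phlda2 are known as maternally expressed genes, and Igf2 and Ins2 as paternally expressed ones, several of them only in the embryo or placenta. Loss of this control in humans underlies Beckwith-Wiedemann and Silver-Russell syndromes. The LAD lists do not separate the parental copies.

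The domain held 2 LADs in the Nanopore list and 1 in the Illumina list. A Nanopore LAD of 400 kb at chr7:142580001-142980000 (mm10) took in Igf2, Ins2 and Ascl2, and no base of it lay in an Illumina LAD. A second LAD lay mostly within Kcnq1 and was in both lists, at chr7:143160001-143440000 by Nanopore and chr7:143200001-143440000 by Illumina. H19, Tspan32, Cd81, Cdkn1c, Phlda2 and Nap1l4 lay outside the LADs of both lists.

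**Figure D1:**
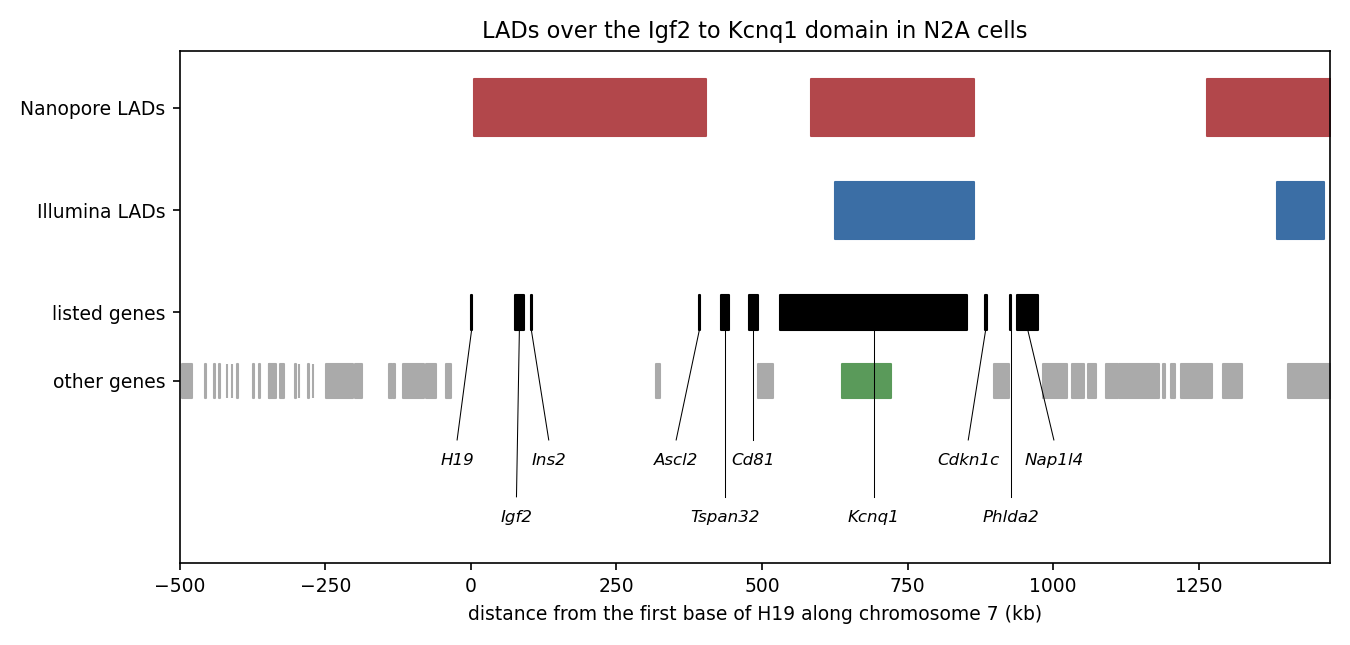
Map of LADs and genes against the distance from the first base of H19 along chromosome 7 in kb. Red bars are Nanopore LADs, blue bars Illumina LADs, black bars the 10 genes, grey bars other protein-coding genes and the green bar Kcnq1ot1. The Nanopore LAD of 400 kb over Igf2, Ins2 and Ascl2 has no Illumina counterpart, and the LAD mostly within Kcnq1 is in both lists.

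Placed by their midpoints, 4 of the 10 genes lay in a Nanopore LAD (Igf2, Ins2, Ascl2 and Kcnq1), against 28.9% of 21523 protein-coding genes. By Illumina 1 of the 10 did (Kcnq1), against 25.4%. Of the 4 classes the lists allow, 1 gene was in LADs of both methods (24.7% of protein-coding genes), 3 were in Nanopore LADs only (4.18%), none in Illumina LADs only (0.674%) and 6 in neither (70.4%). The 3 genes of the Nanopore-only class share a LAD and so make up a single difference between the lists, not 3. H19 is not protein-coding, and without it 4 of 9 genes lay in a Nanopore LAD and 1 of 9 in an Illumina LAD. The counts in either list, on 10 neighbouring genes, do not set the domain apart from other genes. Counting any overlap of gene and LAD left the counts at 4 and 1, where 30.4% and 26.6% of protein-coding genes overlapped a Nanopore and an Illumina LAD. With whole genes required inside, Igf2, Ins2 and Ascl2 were left by Nanopore (26.8% of protein-coding genes) and none by Illumina (23.5%), as Kcnq1 runs past its LAD. LADs widened by a grid step of 20 kb at both ends held 6 of the genes by Nanopore, with H19 and Cdkn1c added (31.0% of protein-coding genes), and 2 by Illumina, with Cdkn1c added (27.3%). Narrowed by as much, they held Igf2, Ins2 and Kcnq1 by Nanopore (27.4%) and Kcnq1 by Illumina (23.9%).

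The Igf2 and H19 side showed the clearest difference between the lists. Igf2 (NCBI gene 16002, chr7:142650768-142666816) encodes insulin-like growth factor 2, a growth factor of the fetus and placenta. All of its 16.0 kb lay in the Nanopore LAD and none in an Illumina LAD. Its midpoint was 78.8 kb inside the nearest Nanopore border and 541 kb outside the nearest Illumina border. Ins2 (NCBI gene 16334, chr7:142678656-142679726) encodes one of the mouse insulins. It too lay wholly in the Nanopore LAD, 99.2 kb from its border, and 521 kb outside the nearest Illumina border. Among the 899 protein-coding genes in Nanopore LADs only, the median distance to an Illumina border was 71.8 kb, and 15.5% lay as far as Igf2 or farther. Igf2 and Ins2 were thus in stretches that a small shift of an Illumina border would not bring into a LAD.

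H19 (NCBI gene 14955, chr7:142575530-142578146), whose RNA is abundant in fetal liver and muscle, lay just outside. Its nearer end was 1.85 kb and its midpoint 3.16 kb from the Nanopore border that begins the LAD of Igf2. To the nearest Illumina border its midpoint had 623 kb. All LAD borders on chromosomes 1 to 19 and X lay on a grid of 20 kb. Thus the border cannot be placed relative to the control element beside H19, and the class of H19 is within a grid step of changing. The stretch between H19 and Igf2 was 72.6 kb long, and 97.4% of it lay in the Nanopore LAD.

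A microRNA in each of these genes falls on either side of that border, and their mature sequences follow to show what the non-coding part of each gene encodes. Mir675 lies in H19, 2.90 kb outside the Nanopore LAD by its midpoint, and Mir483 lies in Igf2, 75.0 kb inside it. Capitals mark the seed, bases 2 to 8, in these RefSeq sequences (GRCm38.p6, minus strand), and the 4 seeds differ from each other.
mmu-miR-675-5p: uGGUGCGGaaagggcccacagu
mmu-miR-675-3p: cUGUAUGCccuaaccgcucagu
mmu-miR-483-5p: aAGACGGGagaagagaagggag
mmu-miR-483-3p: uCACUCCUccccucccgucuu
Each seed occurred in 1 entry of the RefSeq table of mature mouse miRNAs, so none is shared with another listed miRNA.

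Ascl2 (NCBI gene 17173, chr7:142966822-142969264), which encodes a basic helix-loop-helix factor needed for the trophoblast of the placenta, lay at the other end of the same Nanopore LAD. All of its 2.44 kb was inside, with its midpoint 12.0 kb from the border. The nearest Illumina border was 232 kb away. Tspan32 (NCBI gene 27027, chr7:143004907-143019486), a tetraspanin gene of blood cells, came next and lay 32.2 kb outside the Nanopore LAD and 188 kb outside the nearest Illumina one. The Nanopore LAD therefore ended in the 35.6 kb between Ascl2 and Tspan32, of which 30.1% was inside.

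Cd81 (NCBI gene 12520, chr7:143052750-143067930) encodes a tetraspanin found on many cell types. It lay 80.3 kb from the nearest Nanopore border and 140 kb from the nearest Illumina border, outside both. With Tspan32 it sat in a gap of 180 kb between the 2 Nanopore LADs, which also held Tssc4 and the taste-cell channel gene Trpm5. In the Illumina list the same genes were part of a stretch of 2.40 Mb without a LAD (chr7:140800001-143200000), which took in Igf2, Ins2 and Ascl2 as well. Of 1129 gaps between Illumina LADs, 12.4% were that wide or wider.

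**Figure D2:**
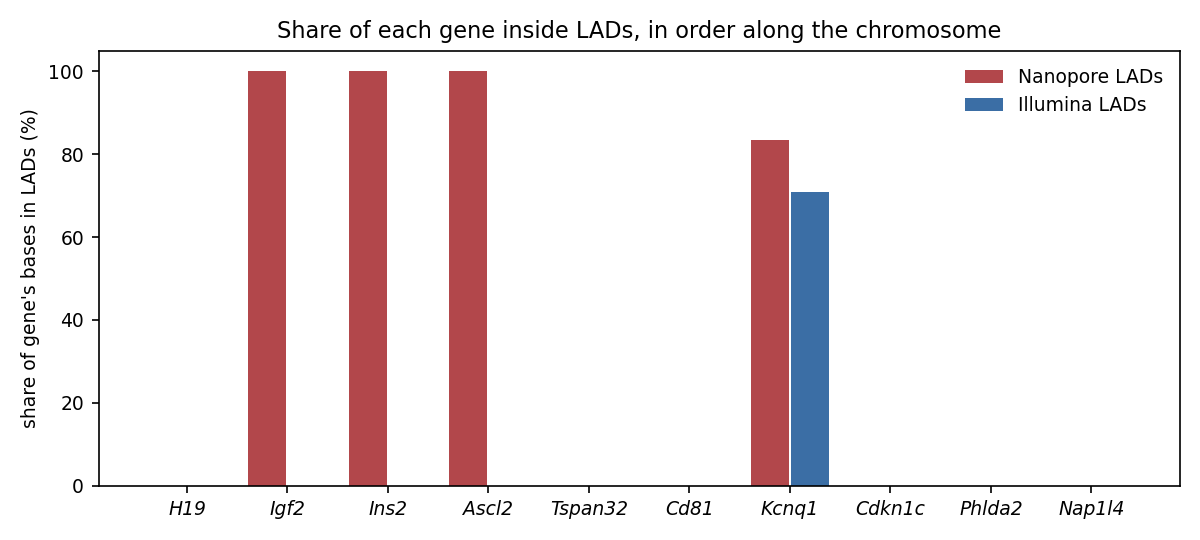
Share of each gene's bases in LADs in percent, by gene in order along the chromosome, with Nanopore as the left bar and Illumina as the right bar. Igf2, Ins2 and Ascl2 are at 100% by Nanopore and 0% by Illumina, Kcnq1 is at 83.4% and 70.9%, and the other 6 genes are at 0% in both.

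Kcnq1 (NCBI gene 16535, chr7:143106877-143427050), a voltage-gated potassium channel gene of heart and inner ear, was the longest of the 10 at 320 kb and the sole gene of the set in LADs of both lists. Nanopore LADs held 83.4% of its bases and Illumina LADs 70.9%. The first 53.1 kb of the gene lay before the Nanopore LAD and the first 93.1 kb before the Illumina LAD. Both LADs ended 12.9 kb past the gene. The gene accounted for 95.4% of the Nanopore LAD and 94.6% of the Illumina LAD, so this LAD lay mostly within Kcnq1 and reached past its end.

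Kcnq1ot1 (chr7:143213111-143296547), the antisense RNA gene within Kcnq1, lay wholly in the LAD of both lists. Kcnq1ot1 is on the minus strand, and its end lay 53.1 kb inside the Nanopore LAD and 13.1 kb inside the Illumina LAD. Its transcription start was 137 kb and 96.5 kb from the nearest border of each. The second control element of the domain thus lay inside the LAD that both methods shared.

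The genes beyond Kcnq1 were outside LADs with both methods, at the same distances, since both lists placed that border at the same grid position. Cdkn1c (NCBI gene 12577, chr7:143458339-143461059), which encodes the cyclin-dependent kinase inhibitor p57, lay 19.7 kb past the border by its midpoint and 18.3 kb by its nearer end. Phlda2 (NCBI gene 22113, chr7:143501545-143503145), whose pleckstrin-homology protein restrains placental growth, lay 62.3 kb past it. Nap1l4 (NCBI gene 17955, chr7:143513579-143549882), a nucleosome assembly protein gene at the end of the domain, lay 91.7 kb past it. All 3 sat in a gap that ran for 400 kb to the next LAD by Nanopore and for 520 kb by Illumina. Such gaps are ordinary in size, as 53.2% of Nanopore gaps and 46.1% of Illumina gaps were as wide or wider.

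**Figure D3:**
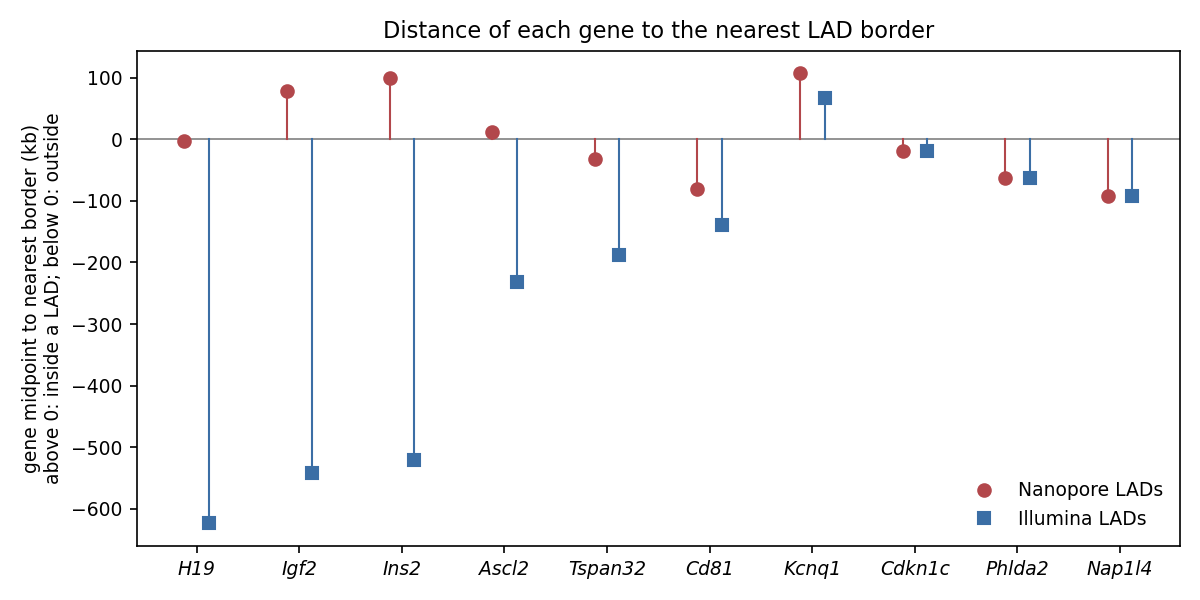
Distance from the midpoint of each gene to the nearest LAD border in kb, above 0 inside a LAD and below 0 outside, with red circles for Nanopore and blue squares for Illumina. The lists part most at H19, Igf2 and Ins2, 521 to 623 kb outside the nearest Illumina border, and give the same distances at Cdkn1c, Phlda2 and Nap1l4.

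The borders of the domain ranged from identical to far apart. The border past Kcnq1 was at the same position in both lists, as were 31.5% of the 2348 Nanopore borders and 32.2% of the 2298 Illumina borders. The border inside Kcnq1 lay 40 kb, or 2 grid steps, earlier by Nanopore, and 65.0% of Nanopore borders were as near to an Illumina border or nearer. The borders of the LAD over Igf2 lay 620 kb and 220 kb from the nearest Illumina border, distances that 8.05% and 18.1% of Nanopore borders reached or passed. Of the 440 kb of the domain in Nanopore LADs only, this LAD made up 400 kb and the earlier border inside Kcnq1 40 kb.

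Over the whole stretch from H19 to Nap1l4 (974 kb), Nanopore LADs covered 69.8% and Illumina LADs 24.6%. All Illumina LAD bases there were also in Nanopore LADs. The share in Nanopore LADs only was 45.2%, against 4.57% of chromosome 7 and 5.60% of chromosomes 1 to 19 and X. With 500 kb added at both ends it was 28.9%. How far this share varies between stretches of such a width was not computed. Nanopore coverage was also the higher of the lists over chromosomes 1 to 19 and X, at 57.6% against 52.6% by Illumina. The number of LaminB1-Dam samples differed between the methods as well, with 1 by Nanopore, beside the 10% one, and 2 by Illumina. In the LAD over Igf2, method and samples cannot be told apart.

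Among 1174 Nanopore LADs, 195 (16.6%) had no base in an Illumina LAD, and the LAD over Igf2 was one of them. Its width of 400 kb stood against a median of 160 kb, and 21 of the 195 were that wide or wider. On chromosome 7 it was the widest of 7 such LADs. It held 4 protein-coding genes by midpoint (Igf2, Ins2, Th and Ascl2), or 10.0 per Mb, against 4.20 per Mb pooled over all Nanopore LADs. The Nanopore LAD before it on the chromosome, 640 kb wide, held 23. The LAD over Igf2 was looked at because it holds listed genes, and the spread of gene density between LADs was not computed. The 213 kb between Ins2 and Th, the tyrosine hydroxylase gene, were without a protein-coding gene and wholly inside.

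**Figure D4:**
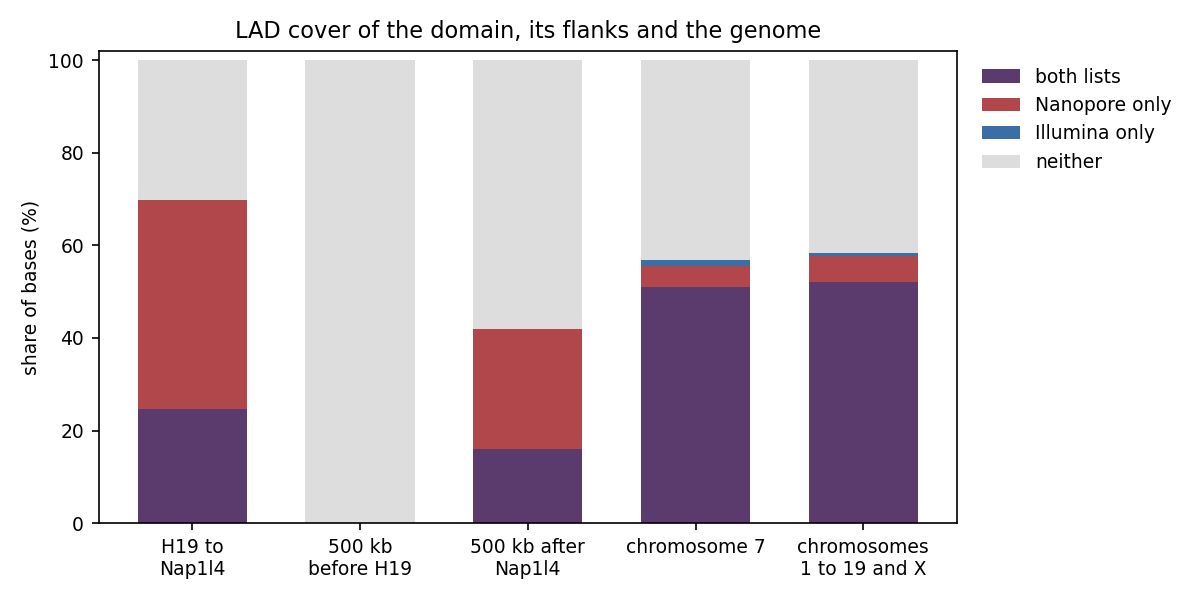
Share of bases in percent in LADs of both lists, of Nanopore only, of Illumina only and of neither, for the stretch from H19 to Nap1l4, its flanks of 500 kb, chromosome 7 and chromosomes 1 to 19 and X. The Nanopore-only share is 45.2% in the domain, 4.57% on chromosome 7 and 5.60% over all these chromosomes.

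Other genes of the domain followed the same layout. Of 8 further listed genes between H19 and Nap1l4, Mir483, Igf2os and Th were in the Nanopore LAD only, Kcnq1ot1 was in LADs of both lists, and Mir675, Tssc4, Trpm5 and Slc22a18 were in neither. Th lay 83.6 kb inside the Nanopore border and 304 kb outside the nearest Illumina border. Of 13 protein-coding genes of the span, the Nanopore LADs held 5 and the Illumina LAD 1, against 28.9% and 25.4% of all protein-coding genes. Of every annotated gene of the span, the Nanopore LADs held 14 of 28 and the Illumina LAD held 3. That count includes genes that overlap, such as Mir483 and Igf2, and the share over all annotated genes was not computed. It therefore cannot be set against the protein-coding shares. Among all 12609 long non-coding RNA genes, 36.6% lay in Nanopore LADs and 32.3% in Illumina LADs.

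The flanks differed from each other. In the 500 kb before H19, which hold Mrpl23, Tnnt3, Lsp1 and Ctsd among 23 protein-coding genes, neither list had a LAD. The gene-rich side had no LAD for 1.78 Mb by Nanopore. In the 500 kb after Nap1l4, Nanopore LADs covered 42.0% and Illumina LADs 16.0%. Of 11 protein-coding genes there, 1 had its midpoint in a Nanopore LAD, Acte1, which lay wholly inside with its midpoint 43.4 kb from the border, and none in an Illumina LAD. Shank2, a gene for a scaffold protein of synapses, had 49.5% of its bases in Nanopore LADs and 13.8% in Illumina LADs. The cholesterol synthesis gene Dhcr7 reached into a Nanopore LAD with 33.3% of its bases, with its midpoint 4.21 kb outside, while Cars, Osbpl5, Nadsyn1 and the Tnfrsf22, Tnfrsf23 and Tnfrsf26 genes lay outside the LADs of both lists.

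The sequence at the gene starts is printed for Igf2 and Ascl2, in the Nanopore LAD only, for Kcnq1ot1, in LADs of both lists, and for Cd81, in neither, because DamID is read at GATC sites. RefSeq windows from 250 bases before to 50 after each start (GRCm38.p6) matched 5 of the 10 genes with 8 windows, 4 of them for starts of Igf2. Capitals mark GATC, which reads the same on both strands.
Igf2, start at 142661271, chr7:142661222-142661521, minus strand: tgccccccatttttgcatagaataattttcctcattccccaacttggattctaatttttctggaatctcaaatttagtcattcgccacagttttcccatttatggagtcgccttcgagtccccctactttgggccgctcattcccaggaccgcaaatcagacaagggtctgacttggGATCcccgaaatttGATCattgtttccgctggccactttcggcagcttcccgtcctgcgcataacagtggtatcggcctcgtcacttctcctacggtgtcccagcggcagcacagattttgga
Ascl2, chr7:142969215-142969514, minus strand: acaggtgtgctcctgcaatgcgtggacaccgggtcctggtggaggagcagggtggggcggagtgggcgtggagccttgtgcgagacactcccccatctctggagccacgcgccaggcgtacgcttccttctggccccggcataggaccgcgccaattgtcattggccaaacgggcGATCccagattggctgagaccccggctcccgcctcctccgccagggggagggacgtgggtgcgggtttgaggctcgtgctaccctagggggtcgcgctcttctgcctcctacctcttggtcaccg
Kcnq1ot1, chr7:143296498-143296797, minus strand: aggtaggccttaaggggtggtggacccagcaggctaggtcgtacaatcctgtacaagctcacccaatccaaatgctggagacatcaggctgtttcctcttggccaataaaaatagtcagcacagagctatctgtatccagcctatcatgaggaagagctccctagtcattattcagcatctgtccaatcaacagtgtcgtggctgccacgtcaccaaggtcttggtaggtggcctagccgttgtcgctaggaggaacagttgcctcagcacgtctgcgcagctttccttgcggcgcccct
Cd81, chr7:143052500-143052799, plus strand: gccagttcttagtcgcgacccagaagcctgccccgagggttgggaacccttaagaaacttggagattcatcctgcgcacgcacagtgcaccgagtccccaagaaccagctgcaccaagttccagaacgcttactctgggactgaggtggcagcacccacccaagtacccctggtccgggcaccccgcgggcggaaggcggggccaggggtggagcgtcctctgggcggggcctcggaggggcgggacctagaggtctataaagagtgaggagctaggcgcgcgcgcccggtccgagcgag
The printed Igf2 window held 2 GATC sites and the Ascl2 window 1. The Kcnq1ot1 and Cd81 windows held none, as did the other 3 windows of Igf2 and those of Tspan32 and Phlda2. Of 32619 such windows on chromosomes 1 to 19 and X, 47.7% held GATC, against 2 of the 8 windows of the listed genes. The windows of Th, in the Nanopore LAD only, and of Tssc4, Trpm5 and Slc22a18, in neither list, held GATC as well. This made 6 of 13 over all windows matched for the named genes from H19 to Nap1l4. The windows printed are examples, and GATC in them does not stand for the LAD classes.

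CG pairs, the sites of DNA methylation, were counted in the same windows, each strand giving the same count, and a CG may share a base with a GATC. Over all windows the median was 7, and 94.7% held at least 1. The median was 3 for windows that start in Nanopore LADs and 11 for those that start outside. The 4 starts of Igf2, all in the Nanopore LAD, ranged from 2 to 24 CG, with 14 in the window printed. Ascl2 had 23 in the Nanopore LAD, close to its border. Cd81 had 23 and Phlda2 26 outside LADs of both lists, and Tspan32 had 2. The start of Kcnq1ot1, in LADs of both lists, had 9.

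Imprinted genes of other domains were in LADs about as often by either method. Of 32 such genes, Nanopore LADs held 10 (31.2%) and Illumina LADs 11 (34.4%), with 9 in both. Among all protein-coding genes the shares were 28.9% and 25.4%. The 32 also include long non-coding RNA genes such as Meg3 and Airn. Among all 12609 long non-coding RNA genes the shares were 36.6% and 32.3%. Of the 32 imprinted genes elsewhere, 1 was in the Nanopore-only class, Mirg, which ends the imprinted microRNA cluster downstream of Dlk1. Between H19 and Nap1l4, 3 of the 10 listed genes were, all in a single LAD. Of all protein-coding genes, 4.18% were in this class. Genes in Illumina LADs only, Magel2 and Grb10, were found elsewhere and not between H19 and Nap1l4. Their midpoints were 0.691 kb and 3.96 kb inside the Illumina border, less than the grid step of 20 kb, so their class could change with a shift of 1 step. In the domain of Dlk1 and Dio3, 2 of 6 genes were in Nanopore LADs and 1 in an Illumina LAD. In the Prader-Willi and Angelman domain, 3 and 4 of 6 were. These counts were not tested against those of the Igf2 to Kcnq1 domain, because genes of a domain share LADs and are not independent.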

How the data were processed

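DamID was done in N2A cells with LaminB1-Dam and read by Nanopore and by Illumina. Per the labels' protocols, Nanopore libraries took 2.5 µg of genomic DNA cut with DpnI, with no amplification step described. Per the submitters' processing notes, minimap2, SAMtools, deepTools and bedtools were used with the builds mm10 and hg38, without roles. The values were interval coordinates that the authors deposited, 1210 Nanopore and 1190 Illumina LADs, with no score. The labels and notes do not say how LADs were called, with which thresholds or from which samples. Human CTCF peaks were not used.

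LADs on chromosomes 1 to 19 and X (1174 and 1149) were compared with RefSeq genes of GRCm38.p6, the assembly behind mm10, leaving out 340 genes listed below 3 Mb. A gene was in a LAD when its midpoint was. Coverage of a chromosome was taken between its outermost genes or LADs. Positions were 1-based. No test was made, since the lists hold no values per sample and neighbouring genes share LADs. The genes and lists were chosen with earlier results of these data known. The text names the 10 genes, a list of neighbours, of which Art1 and Chrna10 lay elsewhere on chromosome 7, and imprinted genes of other domains. Alternatives changed gene placement, LAD width, gaps, borders and the ends of the domain. Interval functions were tested on simulated data. The work used Python 3.11.15 with pandas 2.3.3, numpy 2.4.6, matplotlib 3.10.9 and scipy 1.17.1.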

Additional observations from a re-analysis of the deposited data

How the results depend on the processing

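Of 32 alternative values for counts, coverage and median distances, 29 stayed within a set tolerance, and some of these could not change. LADs in the domain were 240 kb or wider, with gaps of 180 kb or more beside them. Dropping LADs under 100 kb or merging gaps of up to 40 kb thus left every value as it was. The tolerance was 1.5 times the count, 20 kb of the distance or the 95% Wilson interval of the share over 49 bins of 20 kb. Neighbouring bins share a LAD and are not independent, so that interval measures no error of the share. The values outside the tolerance were the Illumina count and the Nanopore share of the domain below. The Illumina count, 1 gene as deposited, was 0 with whole genes required and 2 with LADs widened by 20 kb. The Nanopore count, 4 genes as deposited, was 6 with LADs widened by 20 kb. That is exactly at the limit of 1.5 times the count and was taken as within it. Igf2 was in a Nanopore LAD under every placement and change of LADs tried, Ins2 under all of them but placement by transcription start, which was not run for it, and Ascl2 under all but the narrowing of LADs by 20 kb. With 500 kb added at both ends, Nanopore LADs covered 45.1% of the stretch in place of 69.8%. No paired analysis was possible because the lists carry no values per sample, and for the same reason no replicate could be left out. Depth limits could not be computed without counts.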

Other observations

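The gap between the lists went on past the domain to the end of chromosome 7. From the LAD over Igf2 to the last LAD of the chromosome (chr7:142580001-145180000, 2.60 Mb), the Nanopore list had 5 LADs with 1500 kb and the Illumina list 2 with 320 kb. Of those Nanopore LADs, 3 had no Illumina base: the LAD over Igf2, one of 240 kb that held the midpoints of the chloride channel gene Ano1 and the growth factor gene Fgf3, and one of 220 kb in which no protein-coding gene had its midpoint. This end of the chromosome accounted for 1180 kb of the 6500 kb of chromosome 7 in Nanopore LADs only. The stretch was chosen after its values were seen, and no cause was tested.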
